A study of Mus musculus with 8 samples.

Results

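The genes described here are nuclear genes for subunits of the 5 protein complexes of oxidative phosphorylation. With them are the assembly factors whose symbols belong to the same families. They were taken by a rule on gene symbols, which was set with earlier results of these data known. It takes probe sets whose gene symbol begins with Nduf, Sdh followed by a to d, Uqcr, Cox4 to Cox8 or Atp5, with Cox6b2 left out. The rule found 83 genes, 1 probe set each, among 16492 tested probe sets, of which 15270 carry a gene name. Of the 83, 71 encode subunits: 32 of complex I, 4 of complex II, 6 of complex III, 17 of complex IV and 12 of complex V. The other 12 encode assembly factors, which are not part of the finished complexes: 8 for complex I and 4 for complex II. Ndufa4, first ascribed to complex I, is counted with complex IV, as are its relative Ndufa4l2 and Cox7a2l, a factor that links complexes III and IV.

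The chain sits in the inner mitochondrial membrane. Complex I takes electrons from NADH and complex II takes them from succinate, ubiquinone carries them to complex III, and cytochrome c carries them on to complex IV, which reduces oxygen. Complexes I, III and IV pump protons, and complex V, the ATP synthase, lets the protons back through its ring of c subunits to make ATP. Hepatocytes are rich in mitochondria and run beta-oxidation and the tricarboxylic acid cycle, both of which feed this chain. Some subunits of complex IV exist as a general or liver isoform and as isoforms of heart, muscle, lung or testis. The mitochondrial genome encodes further subunits of complexes I, III, IV and V, which were not analysed here.

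Liver RNA of 4 Amacr-/- mice and 4 wild-type mice was measured, 1 array per sample. All 8 animals were male C57BL/6 mice aged 3 to 3.5 months, and the labels name no treatment, driver or allele design. Arrays of a group are biological replicates per the labels. The deleted gene, Amacr, codes for the alpha-methylacyl-CoA racemase, a peroxisomal and mitochondrial enzyme of bile acid synthesis and branched-chain fatty acid breakdown. Values are log2 intensities after RMA, so a difference of 1 is a 2-fold change, and differences are knockout minus wild type. Each probe set has its own scale, so no level is set against that of another gene.

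Amacr itself read 5.47, 5.39, 5.52 and 5.23 in knockout arrays 1 to 4, against 12.03, 12.05, 12.06 and 11.68 in wild-type arrays 1 to 4. The log2 difference was -6.55 (SE 0.10, adjusted p = 4.91e-09 by limma), and the groups were far apart. The arrays did not all have the same quality: the limma array quality weight was 0.2998 for knockout array 2, 0.9565 to 1.206 for the other knockout arrays and 0.9349 to 1.753 for the wild-type arrays. The tissue label held, since 9 measured hepatocyte markers, among them albumin (Alb, 14.97 in knockout and 15.01 in wild type), had means of 10.73 or more in each group. Of 11 Kupffer cell markers, all 11 had a lower knockout mean. Their median departure from the wild-type mean was 0.125, 0.075, -0.658 and -1.08 in knockout arrays 1 to 4, against -0.015, -0.518, 0.05 and 0.475 in wild-type arrays 1 to 4. Knockout arrays 3 and 4 therefore carried the least Kupffer cell signal, and its part in the results below was not tested. In liver as a whole, fewer cells of a type and less RNA per cell cannot be told apart.

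No respiratory chain gene passed the test. With an adjusted p under 0.05, limma called 0 of the 83 genes, against 19 of all 16492 probe sets (0.115%), and the smallest adjusted p of a member was 0.177. At an unadjusted p under 0.05, 7 members had a higher knockout mean and 5 a lower one, 12 in all. Over all probe sets, 5.66% were higher and 5.63% lower at that level, 11.3% in either direction. At that level of p the members' share lay near the background. The knockout and wild-type arrays did not overlap for 11 members, 9 with higher and 2 with lower knockout values. Over all probe sets this held for 3.42% in the higher and 3.25% in the lower direction. The members' share by this count was above the background in the higher direction and below it in the lower one. No test was made of these counts.

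The differences were small and mostly of 1 sign. A higher knockout mean was found for 61 members, or 73.5%, and a lower one for 22. Over all probe sets, 55.4% had a higher knockout mean. The median log2 difference was 0.06 over the members, against 0.02 over all probe sets, and the single values ran from -0.47 to 0.21. The median of the absolute differences was 0.08 for the members and 0.09 for all probe sets. Replicate arrays lay closer together for these genes than over all probe sets: the median SD of a member was 0.09 in knockout and 0.06 in wild type, against 0.14 in knockout and 0.11 in wild type over all probe sets. The 95% interval of the difference lay within 0.5 log2 units of 0, which is 1.41-fold, for 77 of the 83 genes. The 6 genes with wider limits were Sdhaf1, Ndufaf6, Ndufaf4, Ndufs5, Ndufa12 and Cox7a1. For the other 77, a change of more than 1.41-fold in mean array signal thus lay outside the 95% interval. The 77 include Atp5g1, Cox7b2 and Cox4i2, with knockout means of 3.57, 4.02 and 4.92. Without detection calls, signal that low could not be set against background, so the interval does not bound their mRNA.

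**Figure D1:**
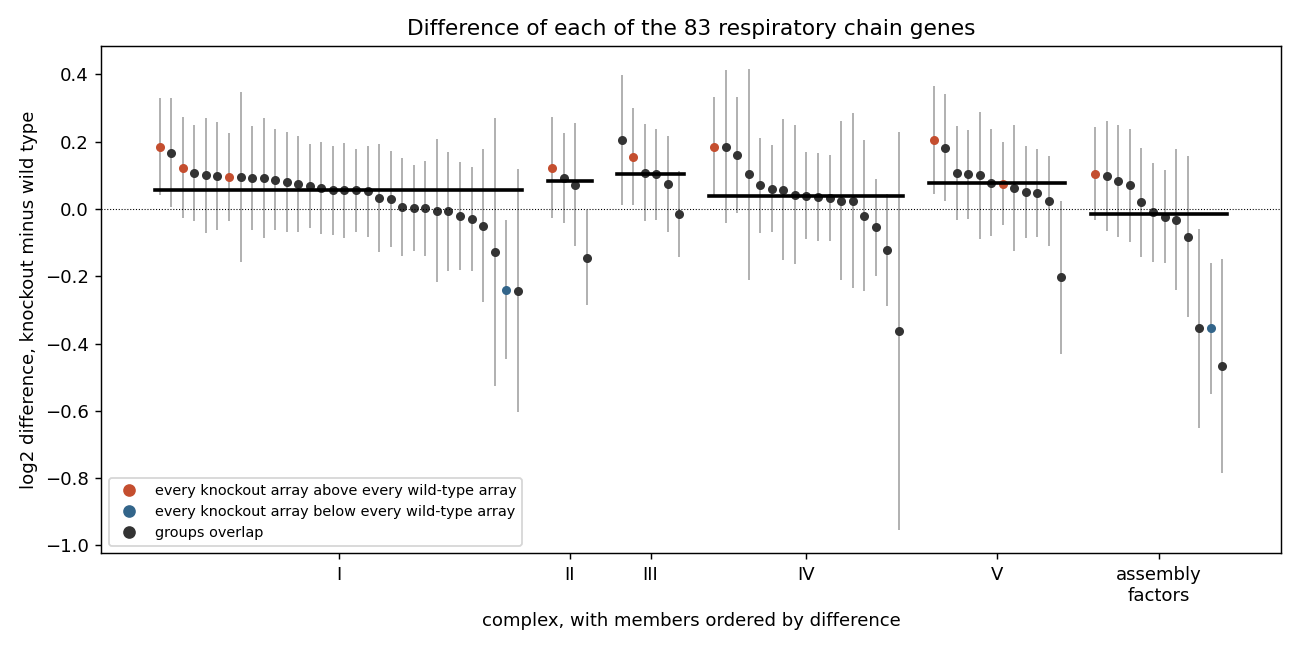
Log2 difference (knockout minus wild type) of each of the 83 genes, grouped by complex and ordered by size, with the 95% limma interval as a grey line and the group's median as a black bar. Medians lie between 0.04 and 0.105 for complexes I to V and at -0.02 for the assembly factors, and the lowest points belong to Ndufaf4, Cox7a1, Ndufaf6 and Sdhaf1.

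Complex I was represented by 5 core subunits, which carry the electron path, and 27 accessory subunits. All 5 core subunits had a higher knockout mean, with a median difference of 0.10, and none passed the test. Of the accessory subunits, 19 were higher and 8 lower, with a median of 0.05. Ndufs8, an iron-sulfur subunit of the arm that leads to ubiquinone, read 12.15, 12.37, 12.20 and 12.17 in knockout arrays, against 12.10, 12.08, 12.11 and 12.11 in wild-type arrays. Its difference was 0.12 (SE 0.07, adjusted p = 0.524). The groups did not overlap, and knockout array 2 alone lay well above the rest. Ndufs7, the iron-sulfur subunit beside the ubiquinone site, read 11.07, 10.94, 11.24 and 11.12 in knockout arrays, against 11.06, 10.96, 10.99 and 10.96 in wild-type arrays. The groups overlapped, with knockout array 2 the lowest of all 8 and knockout array 3 the highest. Ndufs1, a large iron-sulfur subunit of the electron input arm, read 10.84, 10.89, 11.05 and 10.84 in knockout arrays, against 10.87, 10.85, 10.78 and 10.73 in wild-type arrays. The groups overlapped here too. Ndufv1, which binds NADH and flavin, differed by 0.06 (SE 0.05, adjusted p = 0.734), and Ndufv2, its iron-sulfur partner, by 0.09 (SE 0.07, adjusted p = 0.640).

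Among the accessory subunits of complex I, Ndufa10 stood highest by difference. It read 12.29, 12.40, 12.33 and 12.28 in knockout arrays, against 12.22, 12.18, 12.07 and 12.09 in wild-type arrays. The difference was 0.18 (SE 0.06, adjusted p = 0.327), and each knockout array lay above each wild-type array. Ndufv3, a small subunit of the NADH-binding arm, read 12.08, 12.22, 12.27 and 12.27 in knockout arrays, against 11.93, 12.11, 12.08 and 12.05 in wild-type arrays. Knockout array 1 lay among the wild-type arrays, and the difference was 0.17 (SE 0.07, adjusted p = 0.424). Ndufa7 read 11.67, 11.75, 11.74 and 11.66 in knockout arrays, against 11.63, 11.65, 11.61 and 11.55 in wild-type arrays. Those groups did not overlap, although the gap between knockout array 4 and wild-type array 2 was 1 step of the last printed decimal (difference 0.10, SE 0.06, adjusted p = 0.574). The 20 accessory subunits not given singly had differences between -0.03 and 0.11, among them Ndufa9, near the ubiquinone site, at 0.06 (SE 0.06) and Ndufb8, of the membrane arm, at 0.03 (SE 0.06).

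Ndufa12 and Ndufa6 had the lowest differences within complex I, and in both the knockout arrays split. Ndufa6 read 12.29, 12.40, 12.04 and 12.04 in knockout arrays, against 12.47, 12.42, 12.42 and 12.42 in wild-type arrays. Every knockout array lay below every wild-type array, with arrays 3 and 4 lowest (difference -0.24, SE 0.09, adjusted p = 0.370). With knockout arrays 3 and 4 left out, the difference was -0.09 (adjusted p = 0.687). Ndufa12 showed the same 2 arrays low: it read 12.13, 12.25, 11.60 and 11.51 in knockout arrays, against 12.14, 12.10, 12.11 and 12.11 in wild-type arrays. Knockout array 2 was the highest of all 8 and the groups overlapped (difference -0.24, SE 0.16, adjusted p = 0.600); without arrays 3 and 4 the difference was 0.08. Ndufs5 read 11.75, 11.90, 11.65 and 10.97 in knockout arrays, against 11.70, 11.66, 11.75 and 11.67 in wild-type arrays. Here knockout array 4 alone was low, and the difference of -0.13 (SE 0.18) became 0.07 without it. Ndufc2 read 11.68, 11.84, 11.58 and 11.36 in knockout arrays, against 11.73, 11.68, 11.58 and 11.67 in wild-type arrays, again with knockout array 4 lowest and the groups overlapping. These 4 genes differed far less among wild-type arrays. Ndufa12, for instance, spanned 0.74 in knockout and 0.04 in wild type.

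**Figure D2:**
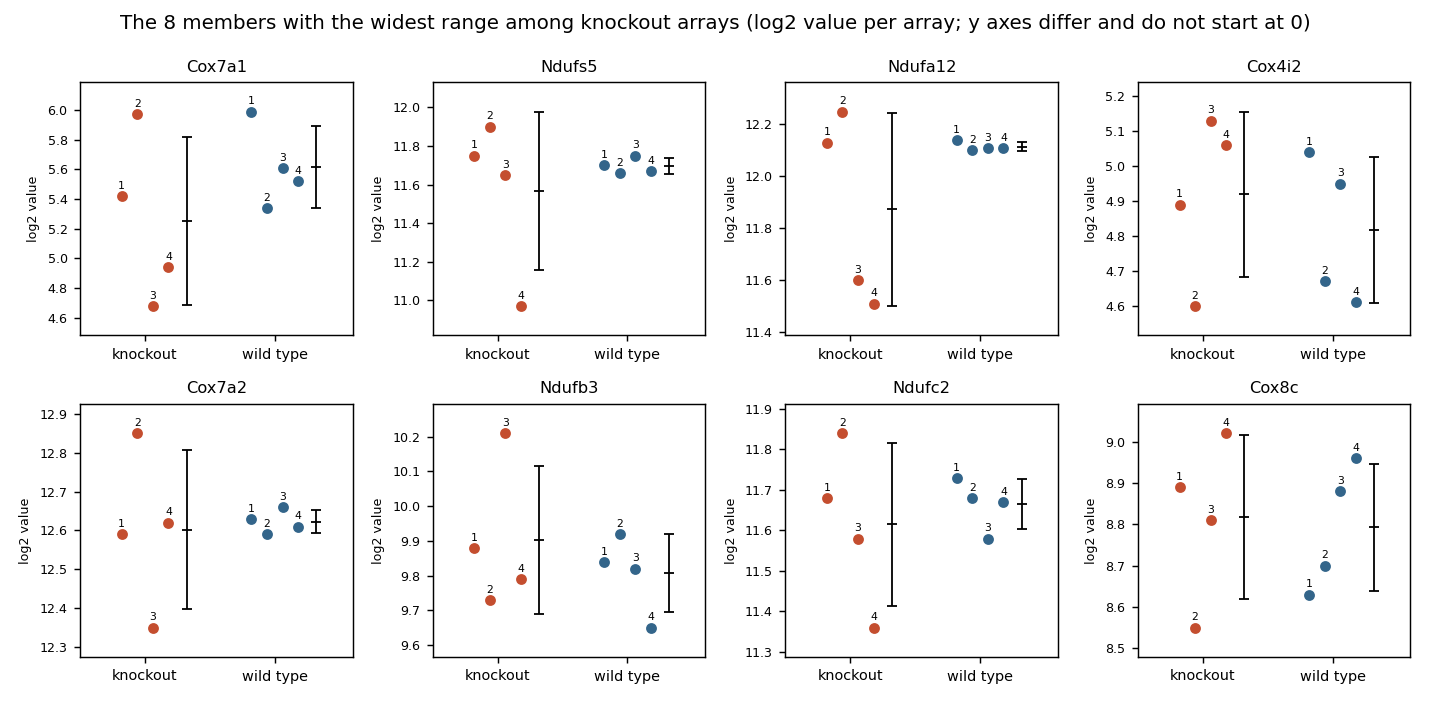
Log2 value per array of the 8 genes with the widest range among knockout arrays (orange, left; wild type blue, right; small digits are the replicate, bars the mean ± SD, n = 4 each; the y axes differ). Ndufa12 lies at 11.60 and 11.51 in knockout arrays 3 and 4 and Ndufs5 at 10.97 in knockout array 4, while wild-type arrays of these genes lie close together.

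Complex II, succinate dehydrogenase, oxidises succinate and is the 1 complex made of nuclear-encoded subunits alone. Its catalytic pair had higher knockout means. Sdhb, the iron-sulfur subunit, read 12.80, 12.80, 12.94 and 12.99 in knockout arrays, against 12.74, 12.74, 12.78 and 12.78 in wild-type arrays. The groups did not overlap, with knockout arrays 3 and 4 highest (difference 0.12, SE 0.07, adjusted p = 0.522). Sdha, the flavoprotein, read 12.39, 12.26, 12.36 and 12.32 in knockout arrays, against 12.29, 12.20, 12.25 and 12.22 in wild-type arrays. Only knockout array 2 lay within the wild-type range (difference 0.09, SE 0.06, adjusted p = 0.592). The membrane anchors, which hold the ubiquinone site, had differences of opposite sign. Sdhd read 11.32, 11.42, 11.32 and 11.31 in knockout arrays, against 11.56, 11.51, 11.47 and 11.41 in wild-type arrays. Knockout array 2 lay just above wild-type array 4, and the other 3 knockout arrays lay below all wild-type arrays (difference -0.14, SE 0.06, unadjusted p = 0.0443, adjusted p = 0.425). Sdhc read 11.49, 11.35, 11.49 and 11.59 in knockout arrays, against 11.56, 11.29, 11.38 and 11.40 in wild-type arrays, with wide overlap (difference 0.07, SE 0.08).

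Complex III passes electrons from ubiquinol to cytochrome c. Its 6 subunits under the naming rule, which leaves out Cyc1, had a median difference of 0.105, with 5 higher and 1 lower. Uqcr10, a small accessory subunit, read 11.67, 11.88, 12.05 and 11.82 in knockout arrays, against 11.57, 11.66, 11.67 and 11.70 in wild-type arrays. Knockout arrays 2, 3 and 4 lay above all wild-type arrays, and knockout array 1 lay level with wild-type array 3 (difference 0.20, SE 0.09, adjusted p = 0.416). Uqcrc2, core protein 2 on the matrix side, read 11.87, 11.85, 11.90 and 11.92 in knockout arrays, against 11.84, 11.75, 11.65 and 11.68 in wild-type arrays. The groups did not overlap, and the gap to wild-type array 1 was small (difference 0.15, SE 0.06, adjusted p = 0.409). Uqcrc1, core protein 1, read 11.88, 11.84, 11.91 and 11.93 in knockout arrays, against 11.87, 11.79, 11.73 and 11.76 in wild-type arrays, and there wild-type array 1 reached into the knockout range (difference 0.10, SE 0.06). Uqcrq differed by 0.11 (SE 0.06, adjusted p = 0.563). Uqcrfs1, the Rieske iron-sulfur protein that takes the first electron from ubiquinol, differed by 0.08 (SE 0.06, adjusted p = 0.684), and Uqcrh, the hinge protein, by -0.02 (SE 0.06, adjusted p = 0.937).

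Complex IV, cytochrome c oxidase, had 9 general isoforms (7 higher, 2 lower, median 0.04), 7 tissue isoforms (6 higher, 1 lower, median 0.04) and Cox7a2l. Ndufa4l2 was counted among the tissue isoforms. Cox5b, a zinc-binding matrix-side subunit, read 12.78, 12.82, 12.77 and 12.74 in knockout arrays, against 12.66, 12.49, 12.68 and 12.54 in wild-type arrays. Each knockout array lay above each wild-type array (difference 0.18, SE 0.07, adjusted p = 0.343). Cox6b1, on the intermembrane side, read 13.04, 13.15, 13.24 and 13.36 in knockout arrays, against 13.03, 13.06, 13.04 and 13.02 in wild-type arrays. Knockout array 1 lay among the wild-type arrays and the other 3 above them (difference 0.16, SE 0.08, adjusted p = 0.469). The liver isoform Cox7a2 read 12.59, 12.85, 12.35 and 12.62 in knockout arrays, against 12.63, 12.59, 12.66 and 12.61 in wild-type arrays. Its mean was level (difference -0.02, SE 0.10), but knockout array 2 was the highest and knockout array 3 the lowest of all 8. Cox4i1, Cox5a, Cox6a1, Cox8a and Ndufa4 had differences between 0.03 and 0.07, and Cox6c had -0.06, none with an adjusted p under 0.701. Cox7a2l, the supercomplex factor, read 9.67, 9.58, 9.72 and 9.77 in knockout arrays, against 9.84, 9.91, 9.68 and 9.80 in wild-type arrays, where wild-type array 3 reached into the knockout range (difference -0.12, SE 0.07, adjusted p = 0.564).

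The heart, muscle, lung and testis isoforms of complex IV, with Ndufa4l2 counted among them, varied more between arrays. Their median SD was 0.18 in knockout and 0.16 in wild type. Cox7a1, the heart and muscle isoform of subunit 7a, read 5.42, 5.97, 4.68 and 4.94 in knockout arrays, against 5.99, 5.34, 5.61 and 5.52 in wild-type arrays. All 8 values, like those of Cox4i2 and Cox8b, lay below the array medians of 6.62 to 6.66, and without detection calls they could not be set against background. Knockout arrays 3 and 4 were the lowest, and array 2 lay near the top (difference -0.36, SE 0.26, adjusted p = 0.630); without arrays 3 and 4 the difference was 0.08. Cox6a2, the heart and muscle isoform of subunit 6a, read 7.60, 7.46, 7.84 and 7.82 in knockout arrays, against 7.50, 7.41, 7.43 and 7.64 in wild-type arrays. The groups overlapped, with knockout arrays 3 and 4 highest (difference 0.18, SE 0.10, adjusted p = 0.522). Cox4i2, the lung isoform of subunit 4, differed by 0.10 (SE 0.14), and Cox8b and Cox8c, the muscle and testis isoforms of subunit 8, by 0.02 each (SE 0.10 and 0.11). Of 11 skeletal and cardiac muscle markers measured, 8 had a higher knockout mean and 3 a lower one, with a median difference of 0.01 and 0 called.

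Complex V had 11 of 12 subunits with a higher knockout mean, and a median difference of 0.08. Atp5o, the oligomycin sensitivity subunit at the top of the peripheral stalk, read 11.54, 11.64, 11.53 and 11.49 in knockout arrays, against 11.42, 11.23, 11.44 and 11.29 in wild-type arrays. The groups did not overlap (difference 0.20, SE 0.07, fold 1.15, adjusted p = 0.330). Atp5k, subunit e in the membrane part, read 12.57, 12.71, 12.80 and 12.65 in knockout arrays, against 12.50, 12.43, 12.58 and 12.49 in wild-type arrays. Wild-type array 3 lay just above knockout array 1, and the other knockout arrays lay above all wild-type arrays (difference 0.18, SE 0.07, adjusted p = 0.377). In the F1 head, the alpha subunit Atp5a1 read 12.90, 12.91, 12.90 and 12.90 in knockout arrays, against 12.84, 12.81, 12.79 and 12.87 in wild-type arrays. The groups did not overlap although the difference was only 0.08 (SE 0.05, adjusted p = 0.631). The beta subunit Atp5b, which holds the catalytic sites, read 13.75, 13.79, 13.87 and 13.85 in knockout arrays, against 13.67, 13.71, 13.76 and 13.71 in wild-type arrays. Wild-type array 3 lay between the knockout arrays (difference 0.10, SE 0.06, adjusted p = 0.550). The c ring genes differed in sign: Atp5g1 had -0.20 (SE 0.10, adjusted p = 0.487) and Atp5g3 had 0.05 (SE 0.06, adjusted p = 0.791). Atp5g1 lay near the bottom of the array's range, at 3.57 ± 0.16 in knockout and 3.78 ± 0.13 in wild type (SD, n = 4 each), where the table gives no detection call. The peripheral stalk genes Atp5pb and Atp5j and the central stalk genes Atp5d and Atp5e had differences between 0.02 and 0.11.

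**Figure D3:**
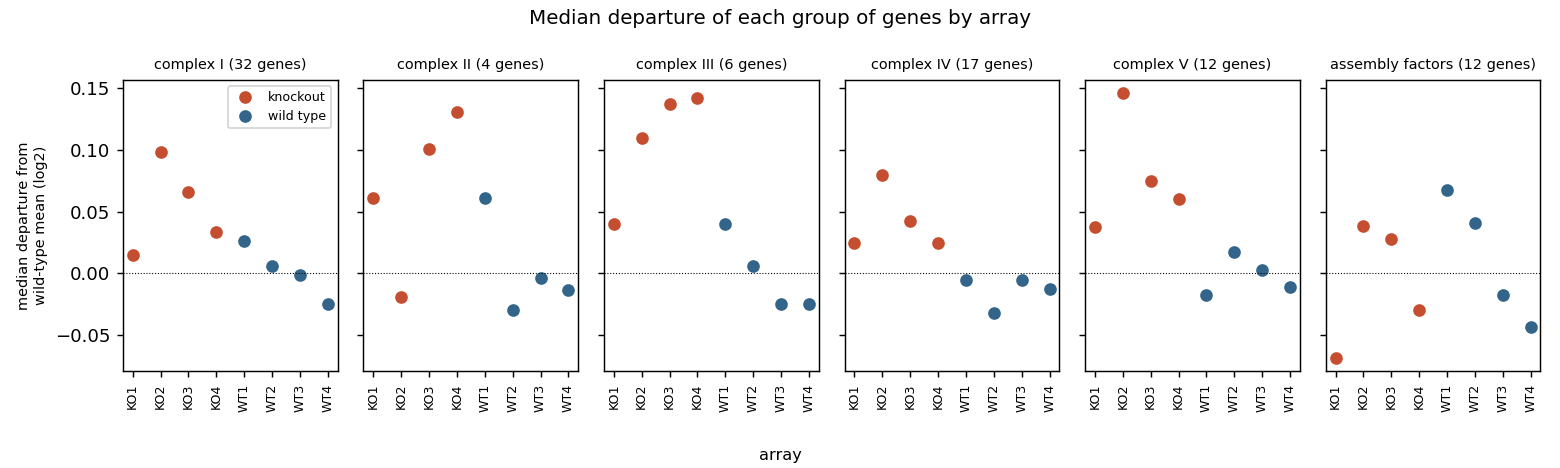
Median departure from the wild-type mean (log2) of each group of genes, by array (KO1 to KO4 knockout, orange; WT1 to WT4 wild type, blue). The knockout medians lie above all wild-type medians for complexes IV and V, reach the highest wild-type median for complex III, and overlap the wild-type medians for complexes I and II and the assembly factors.

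Taken array by array, the members did not sit uniformly higher in the knockout group. Over all 83 genes the median departure from the wild-type mean was 0.015, 0.0875, 0.0725 and 0.0375 in knockout arrays 1 to 4, against 0.0125, 0.01, -0.0025 and -0.025 in wild-type arrays 1 to 4. Knockout array 1 therefore lay level with wild-type array 1. Over all probe sets the median departure was 0.01, -0.035, 0.0375 and 0.03 in knockout arrays 1 to 4. It was -0.0075, 0, 0.0075 and -0.005 in wild-type arrays 1 to 4. The number of genes above their wild-type mean was 46, 66, 61 and 54 in knockout arrays, against 51, 47, 37 and 22 in wild-type arrays. Knockout array 2, with the lowest quality weight, was the single highest array for 33 of the 77 genes with a single highest array, against 19 for knockout array 3, 9 for knockout array 4 and 1 for knockout array 1. Without knockout array 2 the median difference of the members was 0.04, 58 had a higher knockout mean, and complex V had a median of 0.03. Without knockout array 1 the median was 0.07, and 22 members lay higher without overlap, against 5.48% of all probe sets with that array left out.

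**Figure D4:**
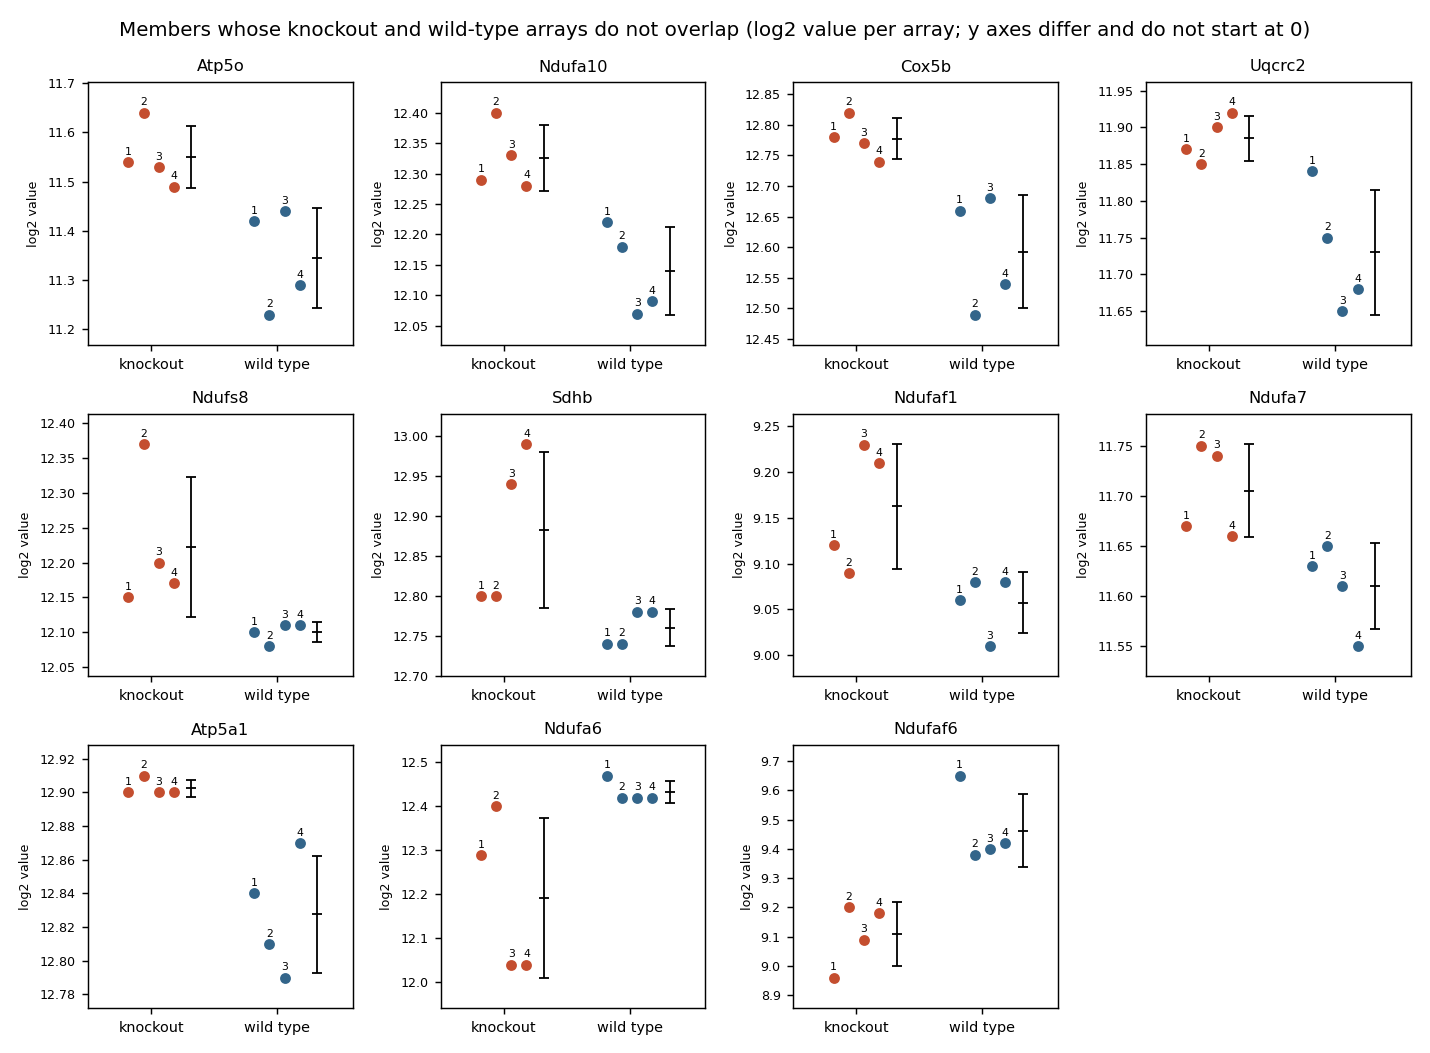
Log2 value per array of the 11 genes whose knockout (orange, left) and wild-type (blue, right) arrays do not overlap (small digits are the replicate, bars the mean ± SD, n = 4 each; the y axes differ and do not start at 0). In 9 panels the knockout arrays lie above the wild-type arrays, and for Ndufa6 and Ndufaf6 they lie below.

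The assembly factors held 3 of the 4 lowest differences among the members, although none passed the test. Of 12, 5 had a higher and 7 a lower knockout mean, with a median of -0.02 that was positive under 4 of the 18 alternative settings. Ndufaf6, needed for the early assembly of complex I, read 8.96, 9.20, 9.09 and 9.18 in knockout arrays, against 9.65, 9.38, 9.40 and 9.42 in wild-type arrays. Every knockout array lay below every wild-type array, and the difference was -0.36 (SE 0.09, 1.28-fold lower, unadjusted p = 0.0025, adjusted p = 0.177). Ndufaf4, an early factor of the same pathway, read 9.11, 9.03, 9.42 and 9.08 in knockout arrays, against 9.73, 9.85, 9.69 and 9.24 in wild-type arrays. Wild-type array 4 lay below knockout array 3, so the groups overlapped (difference -0.47, SE 0.14, 1.38-fold lower, adjusted p = 0.262). Sdhaf1, which helps to put iron-sulfur clusters into complex II, read 8.05, 8.23, 8.17 and 7.93 in knockout arrays, against 8.63, 8.57, 8.54 and 8.06 in wild-type arrays. Here too wild-type array 4 was the exception, lying among the knockout arrays (difference -0.36, SE 0.13, adjusted p = 0.354). Ndufaf1 read 9.12, 9.09, 9.23 and 9.21 in knockout arrays, against 9.06, 9.08, 9.01 and 9.08 in wild-type arrays, without overlap but with a gap of 1 step of the last decimal (difference 0.10, SE 0.06, adjusted p = 0.552). The other 5 complex I factors had differences between -0.03 and 0.10, and the other 3 complex II factors between -0.08 and 0.07.

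Promoter sequence of the members was read from RefSeq (build GRCm38.p6) as 250 bases before to 50 bases after each gene's start, which gave a window for 68 of the 83 genes. The windows shown are those of Atp5o, Ndufa10, Cox5b and Sdhb, whose knockout arrays all lay above the wild-type arrays, and of Ndufa6, whose knockout arrays all lay below. They lie at chr16:91931581-91931880 (minus strand) for Atp5o, chr1:92473709-92474008 (minus strand) for Ndufa10, chr1:36691237-36691536 (plus strand) for Cox5b, chr4:140961021-140961320 (plus strand) for Sdhb and chr15:82354242-82354541 (minus strand) for Ndufa6. Each runs 5′ to 3′ along its gene, and capitals mark matches to the motifs named in the next paragraph, on either strand. The Cox5b window holds no match.
Atp5o: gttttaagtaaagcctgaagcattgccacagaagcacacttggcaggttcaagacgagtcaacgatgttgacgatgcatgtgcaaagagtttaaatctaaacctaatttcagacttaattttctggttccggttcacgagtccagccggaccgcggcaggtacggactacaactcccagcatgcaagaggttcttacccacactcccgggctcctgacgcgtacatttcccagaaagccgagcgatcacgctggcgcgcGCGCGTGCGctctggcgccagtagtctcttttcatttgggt
Ndufa10: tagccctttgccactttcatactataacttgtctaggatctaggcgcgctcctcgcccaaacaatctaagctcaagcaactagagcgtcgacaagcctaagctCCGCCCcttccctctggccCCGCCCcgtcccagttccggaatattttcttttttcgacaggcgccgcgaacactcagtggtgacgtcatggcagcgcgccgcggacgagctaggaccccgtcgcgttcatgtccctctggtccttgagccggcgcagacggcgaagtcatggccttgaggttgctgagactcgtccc
Cox5b: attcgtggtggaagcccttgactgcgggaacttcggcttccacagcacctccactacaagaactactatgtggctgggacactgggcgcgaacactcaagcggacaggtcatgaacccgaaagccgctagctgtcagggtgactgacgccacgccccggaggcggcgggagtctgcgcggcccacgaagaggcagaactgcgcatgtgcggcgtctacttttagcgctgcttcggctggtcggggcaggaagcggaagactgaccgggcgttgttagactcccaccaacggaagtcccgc
Sdhb: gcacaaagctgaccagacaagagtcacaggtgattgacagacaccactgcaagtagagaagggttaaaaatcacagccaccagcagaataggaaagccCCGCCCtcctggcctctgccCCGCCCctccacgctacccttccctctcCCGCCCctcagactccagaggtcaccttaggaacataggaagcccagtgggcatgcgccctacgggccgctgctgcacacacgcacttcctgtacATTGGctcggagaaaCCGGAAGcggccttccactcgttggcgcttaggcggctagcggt
Ndufa6: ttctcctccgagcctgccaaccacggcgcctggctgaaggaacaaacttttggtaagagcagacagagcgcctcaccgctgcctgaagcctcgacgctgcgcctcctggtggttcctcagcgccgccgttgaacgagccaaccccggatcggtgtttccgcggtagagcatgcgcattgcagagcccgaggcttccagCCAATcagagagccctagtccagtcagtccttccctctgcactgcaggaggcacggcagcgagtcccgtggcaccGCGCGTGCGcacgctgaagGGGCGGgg

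Both strands of every window were searched for 6 motifs, of which none holds another. The NRF1 motif, GCGCNTGCG, was found in 21 of 68 members (30.9%), against 12.1% of 12273 named genes of the array. In the printed windows it lies in Atp5o and in Ndufa6, starting 10 and 24 bases after the start site. The ETS motif, CCGGAAG, was found in 17 of 68 members, against 15.5% of the named genes, and lies in the Sdhb window. The YY1 motif, AAGATGGCG, was found in 8 members (11.8%), against 2.66%. The SP1 motif, GGGCGG, was found in 33 members (48.5%), against 60.0%, and in the windows of Ndufa10, Sdhb and Ndufa6. CCAAT was found in 28 members (41.2%), against 42.2%, and the estrogen-related receptor motif, TNAAGGTCA, in 2 members (2.94%), against 1.12%. These shares describe letters in a window and no test was made of them.

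Genes listed as regulators of mitochondrial biogenesis, not all of which act on the nuclear genes described here, had mixed values. Of 26 measured regulators of mitochondrial biogenesis, 9 had a higher and 17 a lower knockout mean, with 0 called and a median of -0.04. Ppargc1a, the coactivator of mitochondrial biogenesis, read 6.77, 6.75, 6.50 and 6.57 in knockout arrays, against 7.15, 6.65, 6.82 and 6.99 in wild-type arrays. Wild-type array 2 lay within the knockout range (difference -0.26, SE 0.12, adjusted p = 0.450). Esrra, a nuclear receptor it coactivates, differed by -0.20 (SE 0.10, adjusted p = 0.474). Ppargc1b differed by -0.05 (SE 0.32, adjusted p = 0.961), and its sign turned under 5 of the 18 alternative settings. Nrf1, Gabpa and Tfam, which drive transcription of nuclear and mitochondrial subunit genes, had differences of 0.05, -0.03 and -0.04, each with an SE of 0.06 to 0.08. The lowest p-values of the list belonged to Prkaa2, a catalytic subunit of the energy sensor AMPK (-0.43, SE 0.08, adjusted p = 0.108), and Ppara, the fatty acid receptor (-0.63, SE 0.12, adjusted p = 0.116). In both, the groups did not overlap.

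Other genes of the pathway, taken from lists of its known parts, gave 0 calls as well. Of 37 assembly factors outside the families above, 14 had a higher and 23 a lower knockout mean. Acad9, a complex I assembly factor related to acyl-CoA dehydrogenases, read 7.67, 7.76, 7.66 and 7.60 in knockout arrays, against 7.31, 7.30, 7.18 and 7.24 in wild-type arrays. The groups did not overlap, and the difference of 0.42 (SE 0.06, 1.33-fold, adjusted p = 0.0597) did not pass. Its adjusted p was 0.0307 with array weights and 0.0463 with quantile normalization. Dmac2, a complex I assembly factor, had a difference of -0.30 (SE 0.10, adjusted p = 0.320), without overlap.

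Of 18 electron carriers and genes of coenzyme Q synthesis, 14 had a higher and 4 a lower knockout mean. Coq8a, a kinase-like protein of coenzyme Q synthesis, read 10.53, 10.79, 9.65 and 9.57 in knockout arrays, against 8.98, 8.90, 8.90 and 9.42 in wild-type arrays. Knockout arrays 1 and 2 lay far above the others (difference 1.08, SE 0.28, adjusted p = 0.182, and 0.0138 without knockout arrays 3 and 4). Coq10b, a coenzyme Q binding protein, had its knockout values on the other side: it read 8.56, 8.56, 9.80 and 9.84 in knockout arrays, against 10.09, 10.52, 10.22 and 10.41 in wild-type arrays. Its groups were apart, and the same 2 knockout arrays lay farthest from wild type (difference -1.12, SE 0.31, adjusted p = 0.225). Gpd2, the glycerol phosphate dehydrogenase that feeds ubiquinone, had a difference of -0.65 (SE 0.12, adjusted p = 0.0975, and 0.0462 with array weights or 0.035 without knockout arrays 3 and 4). Coq4, needed for coenzyme Q synthesis, had a difference of 0.27 (SE 0.06, adjusted p = 0.177), without overlap. The cytochromes of the chain, Cycs and Cyc1, had 0.05 (SE 0.10) and 0.04 (SE 0.07). Of 20 tricarboxylic acid cycle genes, 13 had a higher and 7 a lower knockout mean. Among them Pdhb, a subunit of pyruvate dehydrogenase, had -0.27 (SE 0.07, adjusted p = 0.224) and Suclg2, a subunit of succinyl-CoA ligase, had 0.20 (SE 0.07, adjusted p = 0.325). Of 71 mitochondrial ribosome genes 39 were higher and 32 lower, with the smallest p for Mrpl16 (0.22, SE 0.07, adjusted p = 0.326). Of 18 genes of mitochondrial protein import 9 were higher and 9 lower, with the smallest p for the outer membrane receptor Tomm70a (-0.20, SE 0.07, adjusted p = 0.349). Of 12 carriers coupled to ATP synthesis 6 were higher and 6 lower.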

How the data were processed

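Biotin-labelled liver RNA was measured on 8 arrays, 4 of Amacr-/- and 4 of wild-type mice. The deposited values are log2 intensities with 2 decimals; per the submitters' processing notes the authors used RMA, whose version, like the array type, filters and batch steps, is not given in the sources used here. Because RMA makes the arrays' distributions alike, it would hide a shift shared by all genes. Of 16556 probe sets, 64 controls were left out. No detection calls or scan dates were given, and the number of arrays limits the precision.

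A limma model (version 3.58.1, R 4.3.3; lmFit and eBayes, genotype only, two-sided) compared the groups, with Benjamini-Hochberg adjustment over 16492 probe sets and a threshold of 0.05. P-values in the text are from this fit unless another setting is named beside them. The fit was tested on simulated data with added changes larger than the difference of any member. That test therefore does not show how well changes of the members' size are found. The members and lists were chosen with earlier results of these data known. Genes were named where the groups did not overlap (up to 4 per complex and direction), from a fixed set of subunits and regulators, and up to 2 genes of a list with the smallest p. Ndufa12, Ndufaf4, Ndufb3, Ndufc2, Ndufs5, Ndufv3, Sdhaf1, Coq8a, Coq10b, Alb, Ucp1 and single members named for an unusual array were chosen after their values were seen. Motifs were counted in RefSeq promoter windows (GRCm38.p6), used for sequence only.

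Alternatives covered the eBayes prior, array weights, a filter at the 25th percentile of means, controls, array scaling, the replicate number as a block, and arrays left out. Same-numbered knockout and wild-type arrays did not deviate together (correlations 0.05, -0.027, 0.092 and -0.115 for numbers 1 to 4), so the numbers were not taken as pairs.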

Additional observations from a re-analysis of the deposited data

Results flagged for a closer look

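In 8 of the 166 sets of 4 arrays (83 genes in knockout and in wild type), 1 array stood far from the other 3 by Dixon's test, whose chance rate is about 1 in 20. Knockout array 2 was the high one in 4 of them. Ndufb10 read 11.58 there, against 11.42 to 11.43 in the other knockout arrays. Sdhd read 11.42, against 11.31 to 11.32. Cox8a read 11.70, against 11.54 to 11.56. Atp5a1 read 12.91, against 12.90 in each of the others, which is 1 step of the last decimal. Wild-type array 1 was high in 2 sets: Ndufaf6 read 9.65, against 9.38 to 9.42, and Ndufa6 read 12.47, against 12.42 in each of the others. Ndufa3 read 12.85 in wild-type array 3, against 12.76 in the others. Sdhaf1 read 8.06 in wild-type array 4, against 8.54 to 8.63.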

How the results depend on the processing

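No member passed the threshold under any of 18 alternatives, and the lowest adjusted p of a member was 0.0711, for Sdhaf1 with knockout array 2 and wild-type array 4 left out. Over all probe sets the number called was 19, and 28 with an eBayes trend, 38 with quantile normalization, 75 with array weights, 1 with the replicate block, 2 to 39 with 1 array left out, 39 without knockout array 2 and wild-type array 4, and 119 without knockout arrays 3 and 4, which was chosen after seeing the data. With the replicate block, unadjusted p-values under 0.05 went to 6 members with higher and 4 with lower means. The block changed no call of a member. Shares of all probe sets at that level were counted for the main fit only. Member counts at that level under the alternatives therefore have no background beside them. At that level, leaving out 1 array gave 2 to 7 members higher (2 without wild-type array 2 or 4). It gave 2 to 7 lower (2 without knockout array 4). Groups that did not overlap then numbered 9 to 22 higher, against 4.59% to 10.1% of all probe sets. The 22 came without knockout array 1, where the share was 5.48%. Lower without overlap were 2 to 5 members, against 4.06% to 6.03% of all probe sets. The 5 came without wild-type array 4, where the share was 5.92%. Fewer arrays overlap less by construction. Centring arrays on their medians left 6 members higher and 1 lower without overlap, against 3.11% and 3.58% of all probe sets. Quantile normalization left 7 higher, against 3.8% of all probe sets. Of the other genes named, Acad9 passed with array weights and with quantile normalization, Gpd2 with array weights and without knockout arrays 3 and 4, and Coq8a without those 2 arrays. Without knockout array 2 and wild-type array 4, 1 member had a higher mean with an unadjusted p under 0.05 and 7 were lower without overlap, against 9.79% of all probe sets; Cyc1 became -0.02 and Ppargc1b 0.36. Without knockout arrays 3 and 4, 4 higher and 3 lower means had an unadjusted p under 0.05, and 14 members lay higher and 5 lower without overlap, against 9.44% and 11.2% of all probe sets. That setting turned the sign of Atp5j (-0.0175), Cox4i2 (-0.0725), Cox6c (0.0025), Cox7a1 (0.08), Cox7a2 (0.0975), Cox8c (-0.0725), Cycs (-0.10), Ndufa12 (0.075), Ndufb3 (-0.0025), Ndufc2 (0.095), Ndufs5 (0.13) and Slc25a42 (-0.035). Quantile normalization turned Cox5a (-0.0292), Cox8b (-0.00297) and Ndufa4 (-0.00453), and array weights turned Ppargc1b (0.15). Leaving out 1 array gave differences of both signs for Cox7a2 (-0.103 to 0.0642), Cox8b (-0.05 to 0.11), Cox8c (-0.0425 to 0.114), Uqcrh (-0.0358 to 0.000833), Ndufb3 (-0.0075 to 0.15), Ndufc2 (-0.125 to 0.035), Ndufs5 (-0.238 to 0.0717), Cyc1 (-0.000833 to 0.0625), Cycs (-0.0050 to 0.14), Gabpa (-0.07 to 0.03) and Ppargc1b (-0.23 to 0.17). None of these passed the threshold in any setting, and the causes were not tested. The number of members with a higher knockout mean stayed between 57 and 65 and the medians of complexes I to V stayed positive in all 18; the median of the assembly factors ran from -0.04 to 0.02. The filter on low values kept 80 of 83 members.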

Other observations

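Among the lists of cell type markers, 1 gene passed the threshold. Elovl3, a fatty acid elongase of brown fat and liver, read 12.04, 11.83, 11.89 and 11.72 in knockout arrays, against 10.02, 10.93, 10.42 and 10.79 in wild-type arrays. The log2 difference was 1.33 (SE 0.18, adjusted p = 0.0457), all 4 knockout arrays lay above all wild-type arrays, and the adjusted p ran from 0.0285 to 0.195 over 18 alternatives, lying above 0.05 whichever array was left out. The brown adipocyte list, which holds Elovl3, had 9 measured markers, 7 with a higher and 2 with a lower knockout mean (median difference 0.10). Ucp1, which defines brown fat, was among the lower ones and read 4.24 ± 0.14 in knockout and 4.30 ± 0.24 in wild type (SD, n = 4 each). Of 4 erythroid markers measured, 3 had a higher knockout mean; Alas2 differed by 0.54 (SE 0.13, adjusted p = 0.179). A list of 24 genes with cytosolic ribosome symbols had 9 with a higher and 14 with a lower knockout mean (median -0.03). It was made by symbol and takes in genes that are not ribosome subunits, such as Rps15a-ps6 and Rps19bp1. The smallest p-values belonged to Rpl15 (0.46, SE 0.15, adjusted p = 0.290) and Rpl7l1 (-0.27, SE 0.10, adjusted p = 0.351).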
